A study of Mus musculus with 8 samples.

Results

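RNA of UCP1-positive cells from inguinal white adipose tissue (inguinal WAT) was compared with that from interscapular brown adipose tissue (BAT), using 3 libraries of each depot, which are 6 of the 8 libraries of the series. The libraries were chosen by their titles and tissue labels alone. The mice, given in the labels as C57B/6 UCP1-TRAP, were female and 6 weeks old. They were bred at 30 °C, weaned into room temperature at 3 weeks and kept at 4 °C from 4 weeks of age for a further 2 weeks, so every mouse of both groups carried the TRAP allele and had been in the cold. TRAP (translating ribosome affinity purification) marks the ribosomes of one cell type with a GFP tag, here in UCP1-positive cells as the name of the line reads, and an anti-GFP antibody then pulls them down with the mRNA being translated. The labels do not name the tagged protein, the construct, the number of mice per library or an untagged control. Nothing in the labels says whether the 3 libraries of a depot came from separate mice, so p-values measure the spread between these libraries, which may be technical.

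UCP1 lets protons leak across the inner mitochondrial membrane, so that respiration releases heat instead of making ATP. Brown adipocytes of the interscapular depot carry it constitutively, while beige adipocytes are UCP1-positive cells that appear among white adipocytes, above all in the inguinal depot, after cold or adrenergic stimulation. Both cell types store triglyceride in many small droplets, are rich in mitochondria and burn fatty acids and glucose. The inguinal depot of female mice also surrounds ducts of the mammary gland, whose epithelium has a luminal layer and a contractile myoepithelial layer that carries smooth muscle genes. A smooth muscle-like origin for beige cells is the subject named in the series title.

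Levels are FPKM (fragments scaled to transcript length and to the mapped fragments of the library) as deposited, summed over the transcripts of a gene. Of 22552 gene symbols, 8266 had an FPKM of 1 or more in 2 or more of the 6 libraries and were tested with limma on log2(FPKM + 1), once as deposited and once after median-ratio scaling, which divides each library by its typical level. Log2 fold changes are of inguinal WAT over BAT on that log2(FPKM + 1) scale, which understates changes of low genes, and ratios are of mean FPKM. A gene was called at a Benjamini-Hochberg adjusted p under 0.05. FPKM summed to between 75925 and 146254 per inguinal library and to between 122258 and 129977 per BAT library, from an estimated 274771 to 570775 and 372369 to 409495 fragments on the listed transcripts. Inguinal replicate 3 had the lowest total and the fewest fragments, with a size factor of 0.611 against 1.28 and 1.37 in the other 2 inguinal libraries and 1 to 1.05 in BAT. Pearson's r of log2(FPKM + 1) across genes was 0.930 to 0.946 within inguinal WAT, 0.946 to 0.950 within BAT and 0.890 to 0.920 between depots. In such RNA from a tissue, fewer cells of a type and less RNA per cell cannot be told apart.

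As deposited, 219 genes were called (2.65% of those tested), 171 higher in inguinal WAT (2.07%) and 48 lower (0.581%). After scaling, 323 genes were called (3.91%), 207 higher (2.5%) and 116 lower (1.4%), so that the share of higher calls was 78.1% as deposited and 64.1% after scaling. Both fits called the same way 142 genes as higher (1.72%) and 25 as lower (0.302%). The 3 inguinal and 3 BAT values did not overlap for 1005 genes (12.2%). Many of the higher calls were of genes scarcely read in BAT: of the 171 called as deposited, 106 were under an FPKM of 1 in every BAT library and 48 were at 0 in all of them. Calls in both fits that also held in all 12 fits that left out 1 library numbered 58 higher and 3 lower. The call of a gene named below held in those 12 fits unless the libraries it depended on are given.

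**Figure D1:**
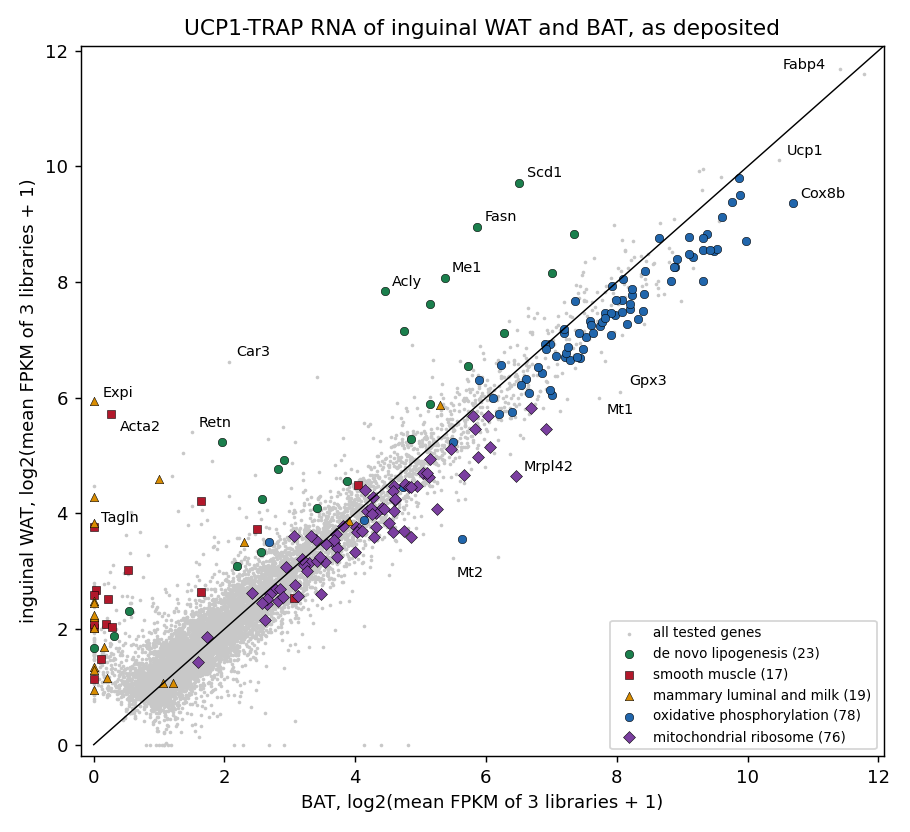
Mean level of each tested gene in BAT (horizontal axis) and inguinal WAT (vertical axis), both as log2(mean FPKM of 3 libraries + 1), with 5 gene lists marked and equality drawn as a line. Enzymes of fatty acid synthesis lie above the line over a wide range of levels. Most smooth muscle and mammary genes lie toward the left edge, where BAT is at or near 0. Most genes of oxidative phosphorylation and the mitochondrial ribosome lie below the line.

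Ucp1 and Cidea, both genes of thermogenic adipocytes, were read in every library of both depots. Ucp1 was among the 5 most abundant genes of both depots, at 1417, 1302 and 592 FPKM in inguinal replicates 1, 2 and 3 and at 1409.8, 1575 and 1313 in BAT, so as deposited the shallow inguinal library lay below the rest and the other 5 overlapped. After scaling it was at 1031, 1018 and 969 in inguinal WAT and 1349, 1554 and 1313 in BAT, and every inguinal library lay below every BAT library. Its log2 fold change was -0.47 ± 0.27 (SE) as deposited (adjusted p = 0.728) and -0.48 ± 0.12 after scaling (adjusted p = 0.0734). Cidea, a lipid droplet protein rich in brown and beige adipocytes, was at 311, 363 and 149 FPKM against 324, 292 and 373, with overlap as deposited. After scaling the values of Cidea were 226, 284 and 243 against 309.8, 288 and 373, without overlap, and its log2 fold change was -0.36 ± 0.16 (adjusted p = 0.252). Neither gene was called in either fit. Adipoq, which encodes adiponectin, was at 264, 216 and 126 FPKM in inguinal WAT and 204, 188 and 145 in BAT, and Fabp4, the adipocyte fatty acid binding protein, at 3573, 4119.7 and 2145 against 3046, 2654 and 2505. The groups overlapped for both genes, which were not called in either fit. Of 24 pan-adipocyte genes tested, 2 were called higher as deposited and 3 after scaling, none was called lower by limma (0 and 1 with an unadjusted p under 0.05), and the median log2 fold change was 0.21 both times, against 0.02 over all tested genes as deposited and -0.01 after scaling. As deposited, the number rose to 9 without inguinal replicate 3, and after scaling it was 1 without inguinal replicate 3 or BAT replicate 3.

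**Figure D2:**
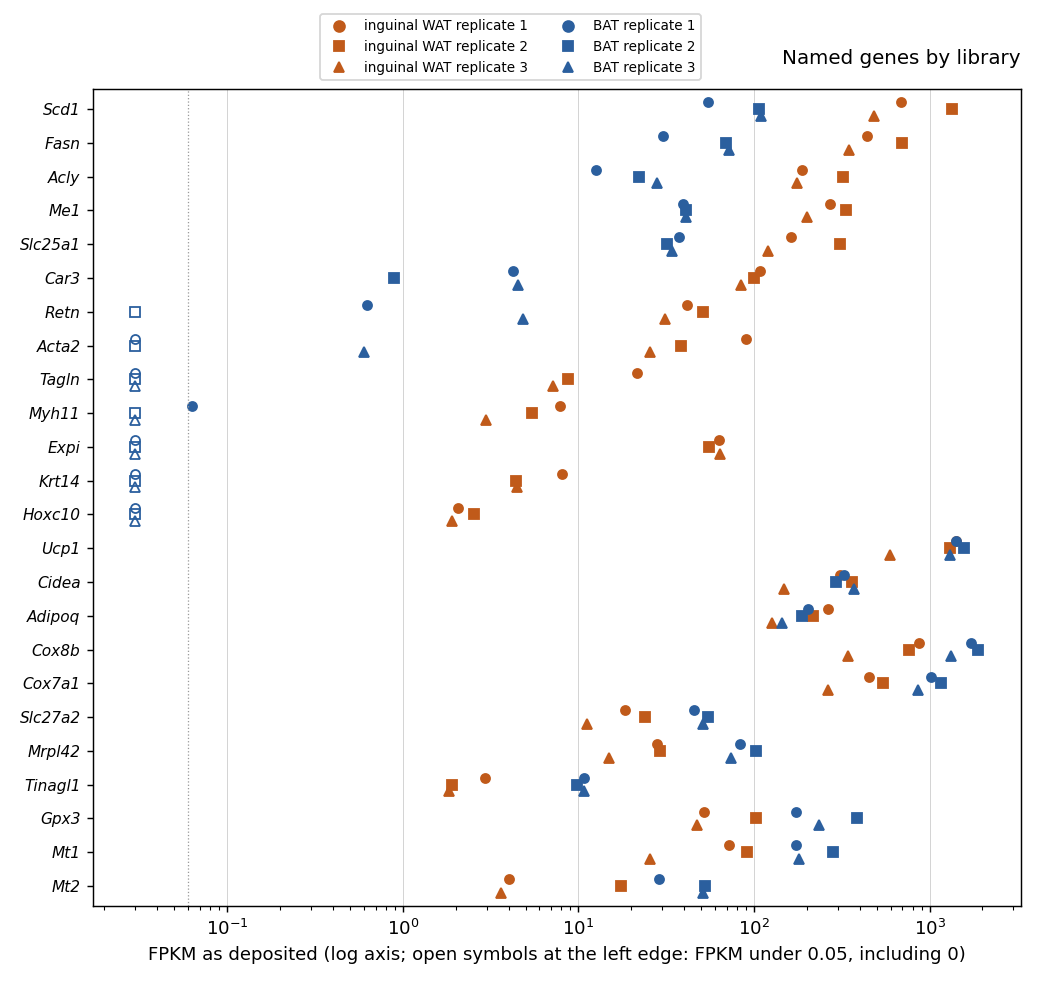
FPKM of 24 genes in each of the 6 libraries on a log axis, with inguinal WAT in orange, BAT in blue and a marker shape for each replicate number. The depots are apart for enzymes of fatty acid synthesis, for smooth muscle and epithelial genes that are at or near 0 in BAT, and for the metallothioneins, and they overlap as deposited for Ucp1, Cidea and Adipoq, where inguinal replicate 3 has the lowest value; after scaling Ucp1 and Cidea do not overlap.

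The thermogenic core list (24 genes of brown and beige adipocytes such as Ucp1 and Dio2) tended to lie lower in inguinal WAT. Of 23 tested members, 19 had a negative log2 fold change after scaling and 4 a positive one. The median was -0.45 as deposited and -0.46 after scaling. At an unadjusted limma p under 0.05, 5 were lower as deposited and 11 after scaling, and 0 higher. By adjusted p, 3 were called lower as deposited and 4 after scaling, none higher. As deposited, 1 was left without BAT replicate 1 or BAT replicate 2. Cox8b, the heart and brown fat isoform of cytochrome c oxidase subunit VIII, was at 866, 767 and 343 FPKM in inguinal WAT and at 1728, 1896 and 1332 in BAT. Every BAT library lay above every inguinal one, the mean was 2.51 times higher in BAT, and the log2 fold change was -1.42 ± 0.29 as deposited (adjusted p = 0.000385) and -1.43 ± 0.15 after scaling (adjusted p = 0.00203). Cox7a1, the muscle-type isoform of subunit VIIa, was at 449.6, 542 and 263 FPKM against 1014, 1161 and 854 (log2 fold change -1.32 ± 0.30, adjusted p = 0.00264, as deposited). It was not called as deposited without BAT replicate 1 (adjusted p = 0.0582) or BAT replicate 2 (adjusted p = 0.111), and held in every such fit after scaling. Slc27a2, an acyl-CoA synthetase that activates very long fatty acids, was at 18.5, 24.1 and 11.2 FPKM against 45.4, 54.5 and 51.3, 2.81 times higher in BAT (after scaling, log2 fold change -1.51 ± 0.18, adjusted p = 0.00381). As deposited its call (adjusted p = 0.0334) ended without inguinal replicate 1 or any BAT replicate (adjusted p from 0.0985 to 0.327). Fabp3, the heart fatty acid binding protein, was called lower after scaling alone (adjusted p = 0.0229), and not without inguinal replicate 1 or inguinal replicate 3 or BAT replicate 1 or 3 (adjusted p from 0.0526 to 0.0765).

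Enzymes of fatty acid synthesis were higher in inguinal WAT. The pathway takes citrate out of mitochondria, cleaves it to acetyl-CoA, and joins the units into fatty acids with NADPH as reductant, after which desaturases and elongases finish the chain. All 23 listed genes were tested, and 20 had a mean FPKM of at least 1 in BAT too. Of the 23, 14 were called higher as deposited and 16 after scaling, and none was lower (0 with an unadjusted p under 0.05). The 3 inguinal values lay above the 3 BAT values for 22, against 12.2% of all tested genes not overlapping in either direction. The median log2 fold change was 1.64 and 1.61. Without BAT replicate 1, 8 were called as deposited, and the number after scaling stayed between 13 and 16 in the fits that left out 1 library.

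Going along the pathway, Slc25a1, the mitochondrial citrate carrier (chr16:17925304-17928312, mm9), was at 163, 308 and 119.9 FPKM in inguinal WAT and 37.4, 32.0 and 34.2 in BAT, 5.70 times higher (log2 fold change 2.37 ± 0.41, adjusted p = 1.73e-05 as deposited and 0.00188 after scaling). Acly, which cleaves citrate to acetyl-CoA (chr11:100337666-100389314), was at 189, 320.4 and 175 FPKM against 12.6, 22.2 and 27.9, a ratio of 10.9 (log2 fold change 3.40 ± 0.41, adjusted p = 1.18e-09 and 0.00174). Acaca, the acetyl-CoA carboxylase that commits carbon to fatty acids, was at 122, 179 and 121 FPKM against 17.8, 28.2 and 31.7, a ratio of 5.44 (adjusted p = 1.65e-05 and 0.0052). None of the inguinal libraries overlapped BAT at these steps. Fasn, the fatty acid synthase (chr11:120667272-120685861), was at 439, 700.1 and 348 FPKM against 30.2, 69.1 and 72.3, 8.67 times higher (log2 fold change 3.13 ± 0.38, adjusted p = 1.18e-09 and 0.00305). Me1, the cytosolic malic enzyme that supplies NADPH, was at 271, 333 and 201 FPKM against 39.5, 40.9 and 40.8, 6.65 times higher (adjusted p = 3.26e-07 and 0.000455). BAT levels of Me1 were nearly equal in the 3 libraries. Scd1, the main stearoyl-CoA desaturase of adipose tissue (chr19:44468940-44482199), was at 691, 1345 and 486 FPKM against 54.5, 106 and 110.1, 9.32 times higher (log2 fold change 3.14 ± 0.36, adjusted p = 2.16e-10 and 0.00203). Its paralog Scd2 was at 38.1, 52.7 and 19.7 FPKM against 1.84, 1.42 and 5.36, 12.8 times higher (adjusted p = 2e-08 and 0.00203). In each of these genes inguinal replicate 2 had the highest value as deposited, and BAT replicate 1 was the lowest BAT library for Acly, Acaca, Fasn and Scd1. After scaling, inguinal replicate 3 was the highest library for Acly, Acaca and Fasn. Thrsp, a nuclear protein induced with lipogenesis, was at 463, 608 and 299 FPKM against 134, 163 and 188 (ratio 2.82, adjusted p = 0.00643 after scaling). As deposited its call (adjusted p = 0.00545) ended without inguinal replicate 1 or inguinal replicate 2 or BAT replicate 1 or 2 (adjusted p from 0.0578 to 0.154).

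Genes beside the core pathway followed in part. Slc25a10, the mitochondrial dicarboxylate carrier, was at 6.39, 10.8 and 3.34 FPKM in inguinal WAT and 0.274, 0.481 and 0.361 in BAT (log2 fold change 2.40 ± 0.39, adjusted p = 3.66e-06 and 0.00174). It and Slc25a1 were the 2 of 31 tested mitochondrial carriers called higher in both fits, while Slc25a39, a carrier that brings glutathione into mitochondria, was called lower after scaling alone (log2 fold change -0.61 ± 0.13, adjusted p = 0.0413) and in none of the scaled fits that left out 1 library (adjusted p from 0.0665 to 0.143). Slc27a1, the fatty acid transport protein on the beige-selective list, was at 39.8, 55.5 and 18.8 FPKM against 5.76, 5.16 and 5.02 (ratio 7.16, adjusted p = 2.32e-05 and 0.000564). The related Slc27a2 went the other way, as given above. Fabp5, the epidermal-type fatty acid binding protein, was at 59.7, 125 and 57.8 FPKM against 4.56, 8.73 and 15.6 (ratio 8.38, adjusted p = 5.05e-07 and 0.00786). Abcd2, the peroxisomal transporter of very long fatty acids, was at 6.87, 8.13 and 1.89 FPKM against 0.146, 0.146 and 0.441 (adjusted p = 1.66e-05 and 0.00338). It was the 1 of 28 tested peroxisome genes called as deposited, and the number was 4 without inguinal replicate 3. After scaling 3 were called, and 1 without inguinal replicate 1 or inguinal replicate 2 or BAT replicate 1 or 3. Car5b, a mitochondrial carbonic anhydrase, was at 23.1, 18.3 and 7.91 FPKM against 1.96, 1.80 and 1.72 (ratio 9.01, adjusted p = 7.86e-06 and 0.000455). Car5b, Scd2, Me1 and Acaca were outside the rule for named genes and were chosen after their values were seen.

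Cholesterol synthesis pointed the same way with weaker calls. Of 23 tested genes, 22 had a positive log2 fold change after scaling, with a median of 0.92 (0.95 as deposited). As deposited 3 were called, all higher, and after scaling 8 were. The 2 counts depended on single libraries. As deposited, 11 were called without inguinal replicate 3, 1 without BAT replicate 2 and none without any 1 of the other 4, and after scaling 4 without BAT replicate 1 or 3 and 5 without inguinal replicate 2 or inguinal replicate 3 or BAT replicate 2. Insig1, a brake on sterol synthesis that is itself a sterol-regulated gene, was at 67.3, 77.4 and 32.7 FPKM in inguinal WAT and 22.5, 21.1 and 28.0 in BAT, 2.48 times higher (log2 fold change after scaling 1.19 ± 0.18, adjusted p = 0.00871), and was not called as deposited (adjusted p = 0.162). Pmvk, phosphomevalonate kinase, was at 24.5, 32.0 and 18.7 FPKM against 8.52, 6.55 and 9.60 (adjusted p = 0.0372 as deposited and 0.0117 after scaling). As deposited, its call ended without any 1 of 5 libraries, inguinal replicates 1 and 2 and BAT replicates 1 to 3 (adjusted p from 0.128 to 0.445).

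Burning of fuel showed little of this, apart from genes of glucose uptake and glycolysis, which leaned higher with few calls. Of 24 fatty acid oxidation genes tested, none was called as deposited by limma (1 higher and 0 lower with an unadjusted p under 0.05) and 1 higher after scaling. The median log2 fold change was 0.01 and 0.00. That 1 was left without BAT replicate 2 alone among the omissions, and 1 was called as deposited without inguinal replicate 3. Of 22 genes of triglyceride synthesis and lipolysis, none was called in either fit (1 higher and 0 lower unadjusted as deposited, 5 and 1 after scaling), and 5 were called as deposited without inguinal replicate 3 and 1 after scaling without inguinal replicate 1. Of 19 tricarboxylic acid cycle genes none was called as deposited (1 higher and 0 lower unadjusted), and 1 higher after scaling, none without BAT replicate 1, while 1 was called as deposited without inguinal replicate 3. For the 23 tested genes of branched-chain amino acid breakdown, which brown adipocytes use as fuel, the count was 0 in both fits (0 unadjusted as deposited, 2 higher and 4 lower after scaling), and 1 was called without inguinal replicate 3. For the 21 adrenergic and cAMP signalling genes the count was also 0 in both fits (0 unadjusted as deposited, 0 higher and 3 lower after scaling), and 1 was called as deposited without inguinal replicate 3. Of 24 genes of glucose uptake and glycolysis, 20 had a positive log2 fold change after scaling, and the median was 0.38 in both fits. At an unadjusted limma p under 0.05, 6 were higher and 0 lower as deposited, and 12 and 0 after scaling. By adjusted p, 1 was called higher as deposited and 3 after scaling. As deposited that number was 12 without inguinal replicate 3 and 0 without inguinal replicate 1 or inguinal replicate 2 or BAT replicate 2 or 3, and after scaling it was 1 without inguinal replicate 2 or BAT replicate 1 or 2. Hk2, the insulin-regulated hexokinase, was at 28.8, 34.2 and 20.0 FPKM against 11.9, 9.77 and 14.0 (log2 fold change after scaling 1.13 ± 0.21, adjusted p = 0.0253). It did not hold when inguinal replicate 2 or 3, or BAT replicate 1 or 2, was omitted (adjusted p from 0.0596 to 0.0889).

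**Figure D3:**
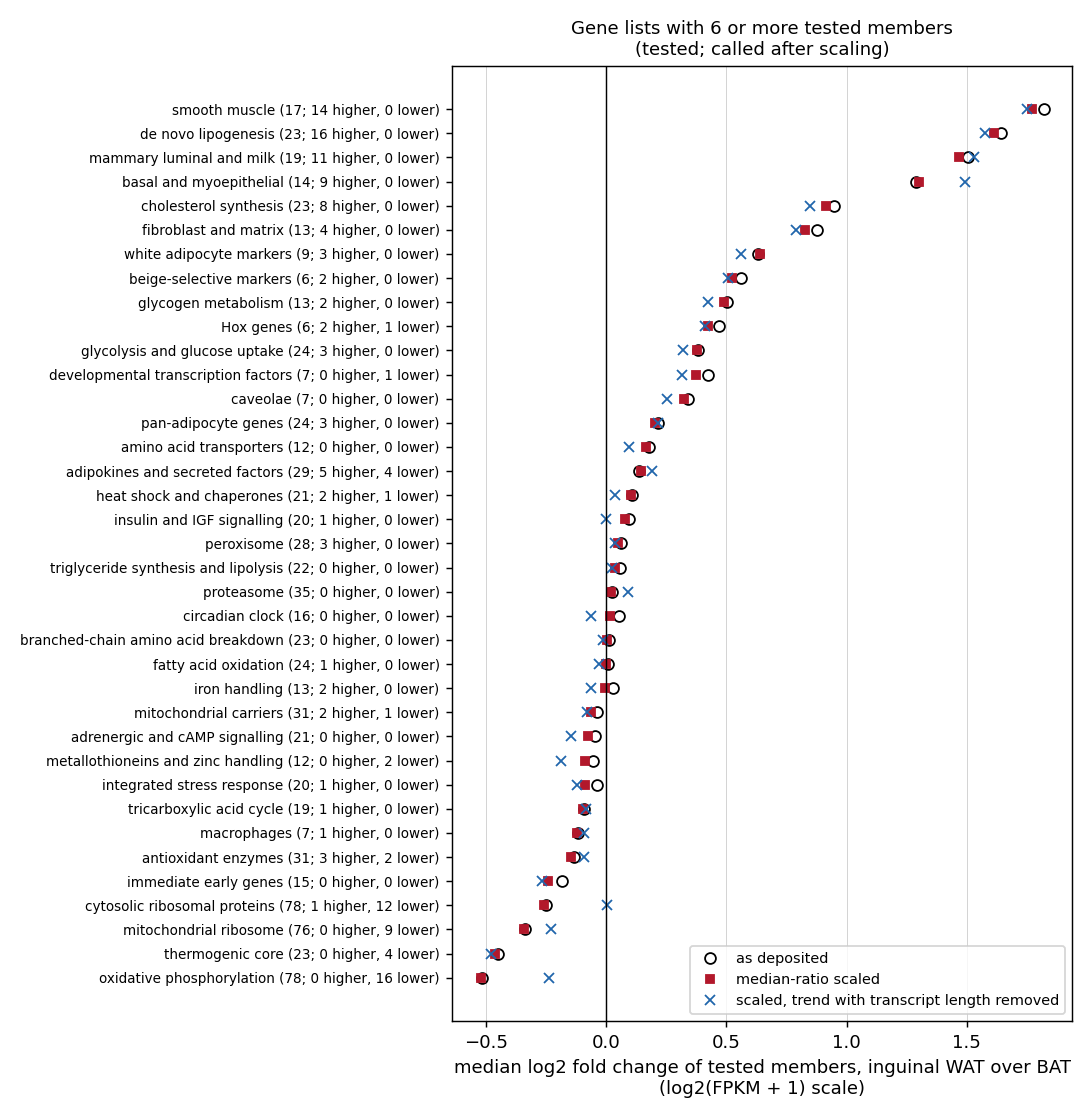
Median log2 fold change (inguinal WAT over BAT) of the tested members of each gene list with at least 6 tested, as deposited (circles), after median-ratio scaling (squares) and after scaling with the trend on transcript length removed (crosses), with the members called after scaling beside each name. Smooth muscle, lipogenesis and mammary lists lie highest under all 3, and the crosses of oxidative phosphorylation and both ribosome lists lie nearer to 0 than their squares.

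Several white fat genes were higher in inguinal WAT. Car3, the carbonic anhydrase typical of white adipocytes (chr3:14863538-14872373), was at 108, 100.5 and 83.9 FPKM in inguinal WAT and at 4.25, 0.895 and 4.50 in BAT, 30.4 times higher (log2 fold change 4.69 ± 0.44, adjusted p = 4.44e-14 as deposited and 0.00116 after scaling). Retn, which encodes the adipokine resistin (chr8:3655770-3659818), was at 41.4, 51.2 and 31.3 FPKM against 0.628, 0 and 4.86, 22.6 times higher (log2 fold change 4.29 ± 0.45, adjusted p = 5.08e-12 and 0.0052). BAT replicate 3 had most of the little Retn read in BAT. Trf, which encodes transferrin, the iron carrier of plasma, was at 18.5, 34.5 and 18.8 FPKM against 2.22, 0.925 and 0.715 (ratio 18.6, adjusted p = 1.17e-09 and 0.00167). With Cp, the ferroxidase ceruloplasmin (6.84, 3.77 and 4.05 FPKM against 1.02, 0.236 and 0.242, adjusted p = 0.000154 and 0.0101), it made up the 2 of 13 iron handling genes called. Cyp2e1, a cytochrome P450 that oxidises ethanol and fatty acids, was at 51.1, 30.0 and 14.3 FPKM against 2.09, 1.78 and 0.853 (ratio 20.2, adjusted p = 1.18e-09 and 0.000455). Of the 9 white adipocyte markers tested of 17 in the files, 3 were called higher in both fits and none lower (0 unadjusted). Only 4 of the 9 had a mean FPKM of at least 1 in BAT, so a lower call was hardly open to the others. Leaving out 1 library gave 2 to 4 higher calls as deposited and 2 to 3 after scaling. Leptin was not among those tested: Lep was at 4.53, 0.715 and 0.198 FPKM against 0.194, 0 and 0.

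Of the 29 tested adipokines and secreted factors, 5 were called higher as deposited and 5 after scaling, and 3 and 4 lower. Fewer were called, in all, without BAT replicate 1 or 2 as deposited (5) and without inguinal replicate 3 or any BAT replicate after scaling (4 to 5). Cfd, which encodes adipsin, a protease of the complement pathway, was at 154, 87.5 and 116 FPKM in inguinal WAT and 41.7, 24.7 and 18.3 in BAT (ratio 4.23, adjusted p = 0.000364 as deposited and 0.0222 after scaling). After scaling it was not called without inguinal replicate 1 or inguinal replicate 3 or BAT replicate 2 or 3 (adjusted p from 0.0518 to 0.0727). Igfbp5, which binds insulin-like growth factors, was at 24.0, 15.7 and 7.29 FPKM against 2.78, 1.45 and 2.25 (ratio 7.26, adjusted p = 7.26e-05 and 0.00174). It was the 1 of 20 insulin and IGF signalling genes called. Apoc1, a small apolipoprotein, was lower at 320.4, 184 and 104 FPKM against 609, 416 and 493 (log2 fold change after scaling -1.45 ± 0.21, adjusted p = 0.00733). As deposited (adjusted p = 0.00589) it was lost without inguinal replicate 3 or BAT replicate 1 or 3 (adjusted p from 0.067 to 0.186). Its longest transcript has 490 nt, and with the length trend removed Apoc1 was not called as deposited (log2 fold change -0.98, adjusted p = 0.144) and was near the threshold after scaling (adjusted p = 0.0496).

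Most smooth muscle genes tested were higher in inguinal WAT. The 3 inguinal values lay above the 3 BAT values for 14 of 17, against 12.2% of all tested genes not overlapping in either direction. Of these 17, 5 were at 0 in BAT and only 5 had a mean FPKM of at least 1 there, so the filter favoured such a count. Over all 25 listed genes, FPKM summed to 262, 152 and 81.0 in inguinal WAT and to 36.0, 34.4 and 29.3 in BAT. Acta2, smooth muscle actin (chr19:34315581-34329826), was at 90.0, 38.4 and 25.7 FPKM against 0.00132, 0.00459 and 0.601 (log2 fold change 5.29 ± 0.43, adjusted p = 2.86e-17 as deposited and 0.000236 after scaling). BAT held so few Acta2 fragments that no ratio is given. Tagln, the actin-binding protein transgelin (chr9:45737711-45744141), was at 21.7, 8.78 and 7.20 FPKM and at 0 in all 3 BAT libraries. Against the level of 3 fragments over the BAT group, it was at least 35.8-fold higher in inguinal WAT (adjusted p = 1.69e-11 and 0.000564). Myh11, the smooth muscle myosin heavy chain (chr16:14194620-14291501), was at 7.84, 5.42 and 3.00 FPKM against 0.0634, 0 and 0 (log2 fold change 2.58 ± 0.38, adjusted p = 3.26e-07 and 0.000591). Inguinal replicate 1 was the highest library for each of these genes. Csrp1, a LIM domain protein of smooth muscle, was at 25.6, 20.1 and 7.21 FPKM against 2.33, 1.53 and 2.47 (ratio 8.36, adjusted p = 2.32e-05 and 0.00135), and Cnn1, calponin, at 7.78, 3.45 and 2.90 against 0, 0.246 and 0.246 (adjusted p = 1.65e-05 and 0.00381). Of the 17 members that passed the filter, 12 were called higher as deposited and 14 after scaling, but only 5 had a mean FPKM of at least 1 in BAT, so the other members had passed through the inguinal libraries. Des, the muscle intermediate filament desmin, lay the other way at 4.74, 6.75 and 2.98 FPKM against 6.83, 7.77 and 7.39, below BAT in every inguinal library and not called (log2 fold change -0.57 ± 0.41, adjusted p = 0.883 as deposited and 0.153 after scaling). Over the 17, the median log2 fold change was 1.82, or 2.38 with the 5 members at 0 in BAT set at their bound. After scaling, 8 were called without BAT replicate 1 and 9 without inguinal replicate 1 or inguinal replicate 2 or BAT replicate 2.

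Many smooth muscle genes are switched on by serum response factor, which binds the CArG box. The promoter of Myl9, the smooth muscle myosin light chain, is shown because it holds that motif, with the box (searched on both strands) in capitals. It spans the 250 bases before the RefSeq start on chr2:156775214-156775463 of GRCm38.p6, plus strand, and the box begins 161 bases before the start.
Myl9: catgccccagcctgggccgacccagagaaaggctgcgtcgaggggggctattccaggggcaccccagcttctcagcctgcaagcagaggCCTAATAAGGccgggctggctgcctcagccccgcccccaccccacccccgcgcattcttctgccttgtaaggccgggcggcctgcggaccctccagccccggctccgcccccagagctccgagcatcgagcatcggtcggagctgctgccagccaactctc
Myl9 was at 9.02, 2.55 and 3.50 FPKM in inguinal WAT and at 0 in every BAT library, which makes it at least 9.78-fold higher (adjusted p = 1.77e-06 as deposited and 0.00687 after scaling). The box was found in 2 of the 9 smooth muscle genes called in both fits that are in the promoter table, Cnn2 and Myl9, and in 1.47% of all 32851 promoters of the same length. The call of Cnn2 ended as deposited without inguinal replicate 1 (adjusted p = 0.0514) and after scaling without BAT replicate 1 (adjusted p = 0.0527).

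Epithelial genes of the mammary gland were higher alongside. The 34 luminal and milk genes in the files summed to 282, 238 and 172 FPKM in inguinal WAT and 57.2, 52.9 and 70.5 in BAT, and the 21 basal and myoepithelial genes to 159, 74.2 and 50.9 against 1.52, 1.20 and 2.30. Acta2 and Myh11 are on the basal list as well as the smooth muscle list. Expi, a secreted protease inhibitor of mammary epithelium (chr11:83522506-83524862), was at 63.5, 55.2 and 63.7 FPKM and at 0 in BAT, at least 59.5-fold higher, with the largest log2 fold change among the named genes (5.95 ± 0.41, adjusted p = 6.94e-21 as deposited and 0.000208 after scaling). Fxyd3, a regulator of the sodium pump in epithelia, was at 25.1, 15 and 15.2 FPKM and Ltf, lactoferrin, at 11.6, 20.2 and 7.92, with none read in BAT, so that Fxyd3 was at least 17.4-fold and Ltf at least 65.2-fold higher. Lcn2, lipocalin 2, which adipocytes and leukocytes make too, was at 32.9, 27.2 and 9.32 FPKM against 0, 2.22 and 0.779 (adjusted p = 9.22e-10 and 0.00227). The keratins of both layers were at 0 in all 3 BAT libraries. Luminal Krt8 was at 6.99, 2.80 and 4.04 FPKM in inguinal WAT, Krt18 at 5.36, 3.74 and 1.70, and Krt19 at 4.43 ± 1.87 (SD, n = 3). Basal Krt5 was at 10.3, 5 and 2.63 FPKM and Krt14 at 8.02, 4.41 and 4.49. Epcam, the epithelial adhesion molecule, was at 6.23, 2.83 and 2.16 FPKM, and Oxtr, the oxytocin receptor of myoepithelium, at 2.92, 4.43 and 1.80, again with 0 in BAT. Krt8, Krt18, Krt19, Epcam, Oxtr, Cnn1 and Myl9 lay outside the rule for named genes and were picked with their values known.

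Of the 19 luminal and milk genes tested, 10 were called higher as deposited and 11 after scaling, of the 14 basal genes 9 and 9, and none was lower (0 unadjusted). For the basal list 5 were called without inguinal replicate 1 in either fit, and 5 without BAT replicate 1 after scaling. Only 5 of the tested luminal genes and none of the basal ones had a mean FPKM of at least 1 in BAT. Among milk protein genes, Csn2 and Wap were at 0 in all 6 libraries, and Lalba was above 0 in inguinal replicate 3 alone. Csn3 was at 15.3, 12.9 and 12.5 FPKM against 7.02, 13.1 and 22, with overlapping groups and no call (adjusted p = 0.995 as deposited). Inguinal replicate 1 had the highest sum of smooth muscle genes, of luminal genes and of basal genes as deposited, and after scaling inguinal replicate 3 had the highest sum of luminal genes. How far the smooth muscle genes and the epithelial genes share a source was not tested.

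**Figure D4:**
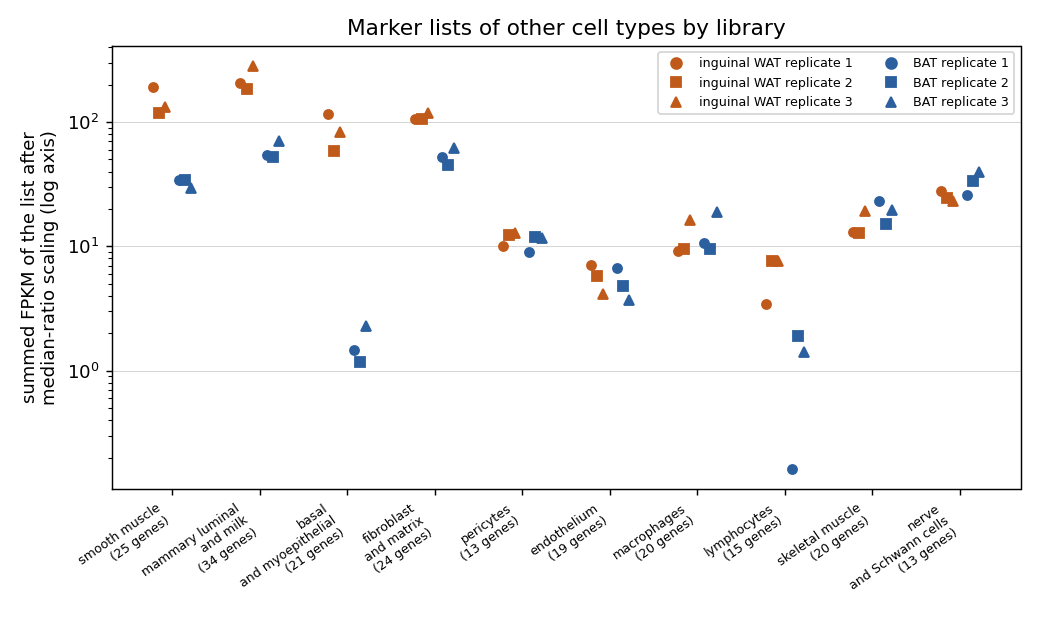
Summed FPKM of marker lists of other cell types in each library after median-ratio scaling, on a log axis, with inguinal WAT in orange and BAT in blue. Smooth muscle, mammary, basal and fibroblast lists are higher in all 3 inguinal libraries, as are the low lymphocyte markers, while pericyte, endothelial, macrophage and skeletal muscle lists overlap between depots.

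Markers of other cells differed to varying degrees. The 24 fibroblast and matrix genes summed to 147, 135 and 71.9 FPKM in inguinal WAT and 55.1, 45.9 and 62.3 in BAT. Among the 13 tested, only 5 had a mean FPKM of at least 1 in BAT, so a lower call was hardly open to the others. While 2.07% of all tested genes were called higher as deposited and 2.5% after scaling, 3 and 4 of these 13 were. As deposited that number was 1 without inguinal replicate 1 or inguinal replicate 2 or BAT replicate 2 or 3, and after scaling 2 without inguinal replicate 1 or BAT replicate 2. Postn, the matrix protein periostin, was called under every such omission, at 6.85, 4.91 and 3.05 FPKM against 0.849, 0.210 and 0.215 (adjusted p = 8.62e-05 and 0.00323). Pdgfra, the receptor that marks adipose fibroblasts and progenitors, was under 1 FPKM in all 6 libraries and was not tested. Pericyte genes summed to 13.8, 15.7 and 7.87 FPKM against 9.50, 12.2 and 11.6. Endothelial genes summed to 9.66, 7.34 and 2.52 FPKM against 7.02, 4.86 and 3.68, macrophage genes to 12.6, 12.2 and 9.96 against 11.2, 9.68 and 18.8, and skeletal muscle genes to 18.0, 16.4 and 11.9 against 24.1, 15.5 and 19.7. The depots overlapped for these lists. Lymphocyte genes were low but did not overlap, at 4.72, 9.76 and 4.70 FPKM in inguinal WAT and 0.170, 1.92 and 1.43 in BAT. Red blood cell genes were lower in every inguinal library, at 0.934, 0 and 1.26 FPKM against 4.01, 5.91 and 8.37. The part of these cells in the results of other genes was not tested.

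Genes of oxidative phosphorylation and of the mitochondrial ribosome lay lower in inguinal WAT, unlike the other mitochondrial lists given above. Oxidative phosphorylation genes encode the respiratory chain and ATP synthase. Of 78 tested, 4 were called lower as deposited and 16 after scaling, and none higher. The 3 inguinal values lay below the 3 BAT values for 44, against 12.2% of all tested genes not overlapping in either direction. That share was not split by transcript length, which is taken up below. The median log2 fold change was -0.51 and -0.52. As deposited, 2 were called without BAT replicate 1 or 2, and after scaling 9 without inguinal replicate 1 or BAT replicate 1 or 2. Cox8b, Cox7a1 and Atp5k were the 3 called in both fits, and Cox8b and Cox7a1 are on the thermogenic core list as well. Atp5k, a small subunit of ATP synthase picked with its values known, was at 320.3, 327 and 125 FPKM in inguinal WAT and 691, 705 and 518 in BAT (log2 fold change -1.42 ± 0.34, adjusted p = 0.00448 as deposited and 0.00289 after scaling). As deposited it was not called when BAT replicate 1 (adjusted p = 0.103) or BAT replicate 2 (adjusted p = 0.103) was omitted. Cox8a, the ubiquitous isoform of subunit VIII, was at 468, 464 and 205 FPKM in inguinal WAT and 726, 877 and 619.5 in BAT, 1.96 times higher in BAT (after scaling, log2 fold change -1.05 ± 0.15, adjusted p = 0.00786, against 0.0552 as deposited). Cox7c was at 423, 448 and 247 FPKM against 719, 778 and 647 (adjusted p = 0.00916 after scaling and 0.0753 as deposited). For both subunits, every scaled fit that left out 1 library kept the call.

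Genes of the mitochondrial ribosome, which translates the subunits encoded in mitochondrial DNA, showed a smaller difference. Of 76 tested, 2 were called lower as deposited and 9 after scaling, none higher. The median log2 fold change was -0.34 both times. As deposited the number was 4 without inguinal replicate 3, 1 without BAT replicate 1 or 3 and 0 without BAT replicate 2, and after scaling 4 and 5 without BAT replicates 1 and 2. Mrpl42, a protein of the large subunit (chr10:94943440-94964561), was at 27.9, 29.0 and 14.9 FPKM against 83.6, 103 and 73.9, 3.63 times higher in BAT (log2 fold change -1.86 ± 0.42, adjusted p = 0.00228 as deposited and 0.00135 after scaling). Mrps36, now also known as a component of the oxoglutarate dehydrogenase complex, was at 53.1, 51.2 and 24.5 FPKM against 119, 128 and 113 (log2 fold change after scaling -1.55 ± 0.14, adjusted p = 0.00118). As deposited, the call of Mrpl42 ended without BAT replicate 2 (adjusted p = 0.0978), while Mrps36 was no longer called without BAT replicate 1, 2 or 3 (adjusted p from 0.131 to 0.214). Cytosolic ribosomal protein genes behaved alike, with 3 of 78 called lower and 1 higher as deposited, 12 lower and 1 higher after scaling, and a median log2 fold change of -0.25 and -0.26. Leaving out a library changed those 4 and 13 calls to between 1 and 8 and to between 1 and 12, the lowest after scaling without BAT replicate 1 (1), inguinal replicate 1 (3) or BAT replicate 2 (3), then BAT replicate 3 (7) and inguinal replicate 3 (8), and as deposited 8 without inguinal replicate 3, 2 without BAT replicate 1, and 1 without inguinal replicate 1 or BAT replicate 2 or 3. Rpl36 was at 70.7, 64.2 and 26.3 FPKM against 175, 136 and 108 (log2 fold change after scaling -1.46 ± 0.19, adjusted p = 0.00502). As deposited (adjusted p = 0.0293) its call was lost without BAT replicate 1, 2 or 3 (adjusted p from 0.0964 to 0.445).

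Transcripts of these lists were shorter than most, with a median longest transcript of 679 nt for oxidative phosphorylation, 1047 nt for the mitochondrial ribosome and 693.5 nt for the cytosolic ribosome. Short transcripts outside the lists had a negative median as well. The median log2 fold change after scaling was -0.47 for the 168 tested genes whose longest transcript had up to 500 nt, -0.42 for the 295 between 500 and 750 nt, -0.21 for the 412 up to 1000 nt, and 0.06 for the 2045 over 4000 nt. Genes called lower after scaling had a median longest transcript of 835.5 nt, against 2580.5 nt over all tested genes, and 57.8% of them had up to 1000 nt, against 10.6%. With the members of the 3 lists left out, the 356 genes of up to 750 nt still had a median of -0.34. Within the oxidative phosphorylation list the median was -0.66 for the 43 members of up to 750 nt and -0.32 for the 35 longer ones. When the smooth trend on transcript length was removed from each library, an alternative chosen after seeing the data, 4 oxidative phosphorylation genes were called lower after scaling in place of 16 and the median was -0.24. The mitochondrial ribosome then had 3 in place of 9 and a median of -0.23, and the cytosolic ribosome 1 in place of 12 and a median of 0.01. Cox8b (log2 fold change -0.83, adjusted p = 0.0165), Cox7a1 (-0.73, adjusted p = 0.0275), Mrpl42 (-1.53, adjusted p = 0.00205) and Mrps36 (-1.24, adjusted p = 0.00242) were still called after scaling, and Cox8a (-0.63, adjusted p = 0.0535) and Cox7c (-0.49, adjusted p = 0.0712) were not. As deposited, removal of the trend left 1 oxidative phosphorylation call in place of 4, and Cox8b (adjusted p = 0.0939), Cox7a1 (adjusted p = 0.280) and Mrps36 (adjusted p = 0.0999) were not called, while Mrpl42 was (adjusted p = 0.0215). After scaling Atp5k was still called (-0.72, adjusted p = 0.0353) and as deposited it was not (adjusted p = 0.440), as was the case for Rpl36 (adjusted p = 0.0289 and 0.444). The lipogenesis list had 16 calls after scaling and 14 as deposited with the trend removed. The thermogenic core had 4 after scaling and 1 as deposited in place of 3, and Fabp3 was not called after scaling (adjusted p = 0.122). Fabp4, at 641 nt, became called higher after scaling (log2 fold change 0.56, adjusted p = 0.0306), though not as deposited (adjusted p = 0.215). The pan-adipocyte list then had 4 higher calls after scaling in place of 3, and 2 as deposited as before.

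**Figure D5:**
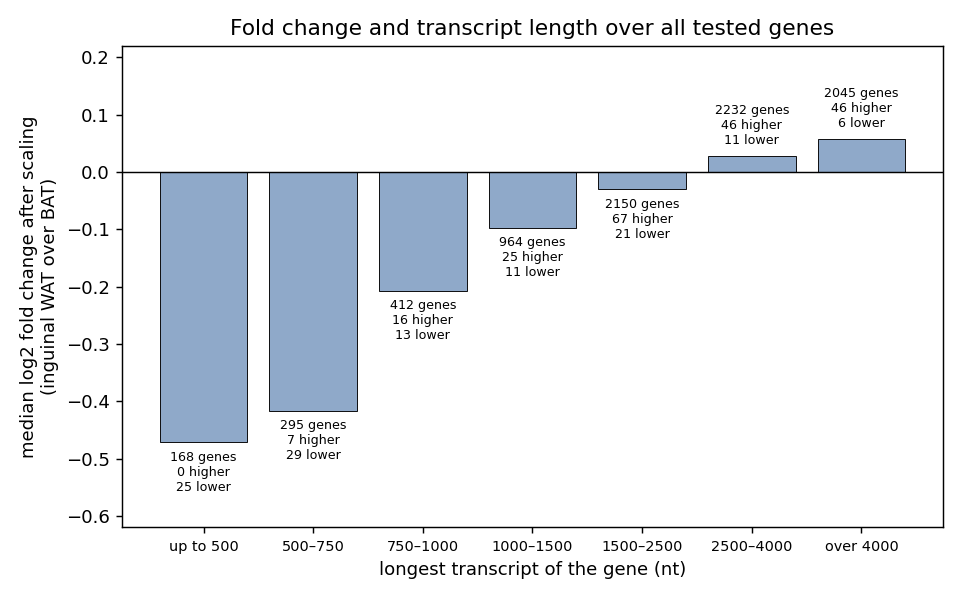
Median log2 fold change after scaling (bars, inguinal WAT over BAT) of all tested genes grouped by the length of their longest transcript in nt, with the number tested and called in each group. The median is -0.47 for the shortest group and 0.06 for the longest, and 25 of the 168 shortest genes were called lower and none higher.

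Metallothioneins were among the lower genes with the largest changes. These small cysteine-rich proteins bind zinc and copper and are induced by metals, glucocorticoids and oxidative stress. Metals act through the metal response element (TGCACNC or TGCGCNC). The promoters of the named pair are shown with each match on either strand in capitals, as the 250 bases before the RefSeq start in GRCm38.p6, plus strand, at chr8:94178839-94179088 for Mt1 and chr8:94172368-94172617 for Mt2.
Mt1: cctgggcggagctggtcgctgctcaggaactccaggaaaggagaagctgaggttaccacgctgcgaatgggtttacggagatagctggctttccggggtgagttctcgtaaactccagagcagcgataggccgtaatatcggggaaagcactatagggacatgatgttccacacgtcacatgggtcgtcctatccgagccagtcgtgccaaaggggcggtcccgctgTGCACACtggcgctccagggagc
Mt2: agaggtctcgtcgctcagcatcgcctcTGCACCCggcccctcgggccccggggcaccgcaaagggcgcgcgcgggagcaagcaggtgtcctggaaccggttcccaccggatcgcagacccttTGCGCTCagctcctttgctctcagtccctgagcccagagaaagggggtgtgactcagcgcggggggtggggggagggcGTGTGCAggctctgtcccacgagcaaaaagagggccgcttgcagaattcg
Within these 250 bases Mt1 has 1 match, 23 bases before the start, and Mt2 has 3, at 223, 128 and 50 bases before it. Bases outside this stretch were not searched. The motif is in 21.4% of all promoters of that length in the table. Mt1 (chr8:96702989-96704227 in mm9) was at 72.1, 90.7 and 25.4 FPKM in inguinal WAT and 173, 282 and 180.5 in BAT, 3.38 times higher in BAT (log2 fold change -1.88 ± 0.41, adjusted p = 0.00103 as deposited and 0.00536 after scaling). Mt2 (chr8:96696518-96697467) was at 4.04, 17.6 and 3.65 FPKM against 28.7, 52.6 and 51.0, 5.24 times higher in BAT (log2 fold change -2.52 ± 0.45, adjusted p = 4.2e-05 and 0.0196). No inguinal library reached the lowest BAT library for either gene. Mt1 was not called as deposited without BAT replicate 2 (adjusted p = 0.088). Mt2 was not called without inguinal replicate 3 (adjusted p = 0.0643 as deposited and 0.0642 after scaling), nor after scaling without BAT replicate 2 (0.0668) or BAT replicate 3 (0.0612). Both are short, at 542 and 556 nt, and both stayed called with the length trend removed after scaling (adjusted p = 0.0243 and 0.0454). None of the other 10 genes of zinc handling tested was called by limma (0 at an unadjusted p under 0.05).

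Gpx3, the secreted selenium-dependent glutathione peroxidase (chr11:54716355-54723889), was at 51.9, 103 and 47.2 FPKM in inguinal WAT and 174, 387 and 235 in BAT, 3.93 times higher in BAT (log2 fold change -1.97 ± 0.39, adjusted p = 0.000316 as deposited and 0.0209 after scaling). It was not called without BAT replicate 2 (adjusted p = 0.0794 as deposited and 0.0566 after scaling) or, after scaling, without BAT replicate 3 (0.0563). Tinagl1, a matricellular protein, was at 2.95, 1.90 and 1.83 FPKM against 10.7, 9.82 and 10.7, 4.68 times higher in BAT with nearly equal BAT libraries (log2 fold change -1.84 ± 0.40, adjusted p = 0.00137 and 0.00321). Its longest transcript has 2095 nt, and removal of the length trend left it at -1.85. Cerkl, a ceramide kinase-like gene picked after its values were seen, was at 1.14, 0.287 and 0.293 FPKM against 3.54, 4.78 and 4.56 (adjusted p = 0.000738 and 0.00502). With Cox8b, Tinagl1 and Cerkl were the 3 lower genes called in both fits and without any 1 library. Id2, an inhibitor of basic helix-loop-helix transcription factors, was at 10.4, 5.76 and 3.90 FPKM against 25.8, 20.2 and 19.4 (log2 fold change after scaling -1.66 ± 0.21, adjusted p = 0.00501). As deposited (adjusted p = 0.0138) it was lost without inguinal replicate 2 or BAT replicate 1, 2 or 3 (adjusted p from 0.0754 to 0.215). Entpd4, with a longest transcript of 3084 nt, was at 49.4, 30.8 and 14.9 FPKM against 94.5, 80.2 and 69.0 (adjusted p = 0.0382 as deposited and 0.00562 after scaling). As deposited the call of Entpd4 ended without inguinal replicate 2 or 3 or any BAT replicate (adjusted p from 0.0554 to 0.405). Sgk2, a kinase related to the serum and glucocorticoid-induced kinase, was at 2.31, 1.37 and 0.843 FPKM against 5.18, 7.85 and 6.49 (adjusted p = 0.00592 and 0.00536), and was lost as deposited without BAT replicate 2 (0.1) or 3 (0.0518). Fam131c was at 1.39, 3.36 and 1.49 FPKM against 5.61, 8.69 and 8.75 (adjusted p = 0.0137 and 0.0234). Its call ended without inguinal replicate 1 or BAT replicate 2 or 3 in either fit (adjusted p from 0.0541 to 0.153). As deposited it also ended without inguinal replicate 3 (adjusted p = 0.0524).

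A few Hox genes differed between the depots at low levels. Hox genes mark positions along the body axis, and adult adipose depots keep part of that pattern. Hoxc10 was at 2.08, 2.56 and 1.91 FPKM in inguinal WAT and Hoxa10 at 2.46, 2.95 and 1.17, and both were at 0 in the 3 BAT libraries, at least 7.5-fold and 10.1-fold higher (adjusted p = 0.00158 and 0.00251 as deposited, 0.00922 and 0.0055 after scaling). Both had passed the filter through the inguinal libraries alone. Hoxa5, a gene of more anterior segments, went the other way at 0, 0.278 and 0.265 FPKM against 2.26, 1.19 and 2.29 (adjusted p = 0.0354 and 0.0363). Its call was lost without 5 of the 6 libraries as deposited, all but inguinal replicate 3 (adjusted p from 0.058 to 0.282), and after scaling without inguinal replicate 1 or inguinal replicate 2 or BAT replicate 1 or 3 (adjusted p from 0.091 to 0.127). These were the 3 called of 6 Hox genes tested of 39 in the files. The classical brown marker Zic1 was at 0 in inguinal WAT and at 0.436, 0.242 and 0.118 FPKM in BAT, under the filter, as were Lhx8 and the beige markers Tbx1 and Tmem26. Of 3 classical brown markers tested of 9 in the files, none was called in either fit (0 with an unadjusted p under 0.05). Their median log2 fold change was 0.02 as deposited and 0.01 after scaling. Of 6 beige-selective markers tested of 14 in the files, 2 were called higher in both fits, against 1.72% of all tested genes, and none lower. The median was 0.56 and 0.52, and 3 of the 6 had a mean FPKM of at least 1 in BAT.

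A few stress genes varied between BAT libraries, while the sum of the integrated stress response list was 192, 253 and 105 FPKM in inguinal WAT and 224, 175 and 240.2 in BAT. Of 20 tested genes of the integrated stress response, which slows translation and induces Atf3 and Ddit3, 3 were called lower and 1 higher as deposited, and 1 higher and none lower after scaling (3 with an unadjusted p under 0.05). Ddit3 was at 1.33, 4.49 and 3.59 FPKM in inguinal WAT and 19.2, 6.74 and 23.8 in BAT. Atf3 was at 3.01, 3.71 and 2.14 FPKM against 10.7, 5.51 and 19.5, and Gdf15, a secreted stress hormone, at 0, 0.688 and 0.686 against 6.88, 1.79 and 6.77. For all 3 genes BAT replicate 2 lay closest to inguinal WAT, and the adjusted p was 0.00101, 0.0172 and 0.00028 as deposited and 0.0784, 0.0599 and 0.0525 after scaling. As deposited, Atf3 was not called without inguinal replicate 1, inguinal replicate 3, BAT replicate 1 or BAT replicate 3 (adjusted p from 0.109 to 0.485). The call of Ddit3 ended without inguinal replicate 1, inguinal replicate 3 or BAT replicate 3 (adjusted p from 0.0593 to 0.104), and that of Gdf15 without inguinal replicate 3 (adjusted p = 0.0593). The list had 4 calls as deposited and 2 when inguinal replicate 1, inguinal replicate 3, BAT replicate 1 or BAT replicate 3 was omitted. After scaling, 3 were called without BAT replicate 2 and none without inguinal replicate 2 or inguinal replicate 3 or BAT replicate 1 or 3. None of 35 proteasome genes (0 unadjusted as deposited, 1 higher after scaling), 16 clock genes (1 higher unadjusted as deposited, 2 higher and 1 lower after scaling) or 7 caveolar genes (0 unadjusted as deposited, 1 higher after scaling) was called in either fit, although 1 proteasome gene was called without inguinal replicate 3.

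A few genes bear on the purification and on read assignment. TRAP lines usually tag the ribosomal protein L10a, and Rpl10a was at 447, 389 and 192 FPKM in inguinal WAT and 216, 213 and 171 in BAT. In inguinal WAT that was 6.44 to 7.75 times the median of the 79 other cytosolic ribosomal protein genes, with none above it, and in BAT 3.54 to 3.85 times, with 4 or 5 above it. It was called higher after scaling alone (log2 fold change 0.69 ± 0.14, adjusted p = 0.0324), and in no scaled fit that left out 1 library (adjusted p from 0.058 to 0.105). Whether reads from a tagged copy were counted under this gene was not tested. Mup genes, which encode the major urinary proteins, are near-identical copies that share reads, so their single values are uncertain. Their sum was 88.1, 64.0 and 82.9 FPKM in inguinal WAT and 4.64, 8.95 and 0 in BAT. Of 10 tested, 8 were called higher in both fits, against 1.72% of all tested genes. Because the copies share reads, these calls are not separate results, and with so low a BAT sum a lower call was hardly open. Mup19 led at 13.7, 12.7 and 14.7 FPKM against 0.615, 0.870 and 0.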

How the data were processed

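RNA pulled down with an antibody to GFP from freshly dissected tissue was sequenced on Illumina libraries, per the labels' protocols. Per the submitters' processing notes, TopHat, Cufflinks and the mouse build mm9 were used, with versions not given in the sources used here. The authors deposited 1 file of transcripts per library, with FPKM for each of 28702 transcripts. FPKM was summed per gene symbol. Low values were whole fragments for 89.3% to 92.8% of those read in the 6 libraries (tolerance 0.05 of a fragment), from which fragments were estimated, and the floor of 3 fragments over the BAT group covers counting error only. Values were transformed to log2(FPKM + 1), as deposited and after division by median-ratio size factors over 8650 genes, and fitted with limma 3.58.1 (R 4.3.3; trend of variance on level, inguinal WAT against BAT, 6 libraries) for genes at FPKM 1 or more in 2 libraries, with Benjamini-Hochberg adjustment. The fit was tested on simulated data. The 2 perigonadal libraries entered 1 alternative only. Tables and figures used Python 3.11.15 and pandas 2.3.3.

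The members and gene lists were chosen with earlier results of these data known. Genes named were drawn from 6 fixed ones, the 12 higher and 12 lower genes with the largest log2 fold change called in both fits (no overlap, mean of at least 5 FPKM in the higher group), up to 4 called members per list by mean FPKM with up to 2 of the other direction, and the 5 most abundant genes per depot. Not every gene that met this rule is named, and others were picked with their values known. Replicate numbers were not taken as pairs. Alternatives were other pseudocounts, filters, scalings, weights, models and omission of each library.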

Additional observations from a re-analysis of the deposited data

How the results depend on the processing

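As deposited, 219 genes were called, and the number was 113 with a pseudocount of 0.1 (100 higher, 13 lower), 8 with no filter on low values (all higher), 101 with a minimum FPKM of 5 (66 higher, 35 lower), 373 without the 10 most abundant genes and with equal totals, and 1431 with array weights, whose estimation stopped before convergence. Leaving out 1 library gave 123 (without inguinal replicate 1) to 448 (without inguinal replicate 3), with 133 and 136 without BAT replicates 1 and 2. After scaling, 323 genes were called, and 183 with no filter (137 higher, 46 lower), 135 (without BAT replicate 1) to 239 (without inguinal replicate 3) when 1 library was left out, with 154, 175, 192 and 209 without BAT replicate 2, inguinal replicate 1, BAT replicate 3 and inguinal replicate 2. A minimum FPKM of 5 gave 344 calls after scaling, of which 156 were higher (45.3%). Removal of the length trend, chosen after seeing the data, gave 248 (74.6% higher). The cause of these changes was not tested.

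With the replicate number as a replicate block, 252 genes were called as deposited and 279 after scaling. Deviations of same-numbered libraries correlated at 0.134, 0.0844 and 0.0822 as deposited, and every library correlated best with its own number, a hint from the data and not from the design.

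Among the named genes, the log2 fold change of Cidea as deposited was 0.0909 with array weights and ranged from -0.61 to 0.035 when 1 library was left out. That of Adipoq ranged from -0.10 to 0.43 as deposited and from -0.0216 to 0.19 after scaling. That of Csn3 ranged from -0.31 to 0.45 as deposited and from -0.34 to 0.45 after scaling, and was -0.0355 with array weights after scaling. None of these was called in the main comparison. Inguinal replicate 3 held an estimated 274771 fragments, the fewest of the 6 libraries.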
